A study of Mus musculus with 6 samples.

Results

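Profilin, cofilin, thymosin and actin transcripts of cultured mouse B cell precursors were followed through a pull-down of the RNA-binding protein LIN28B. The 10 genes were Pfn1, Cfl1, Actb, Actg1, Tmsb4x, Tmsb10, Coro1a, Arpc1b, Arpc2 and Arpc3, each found by its symbol once among the 54752 genes with deposited values. Pfn1 was picked because it was among the transcripts most depleted from the LIN28B IP, and the other 9 were set beside it as abundant regulators of the same filaments. The IP/input values of Pfn1 are therefore a description and are given without a test. Cells came from tet-LIN28B mice, which carry 1 copy of a Dox-inducible, Flag-tagged human LIN28B cDNA in the Col1a locus together with the Rosa26-rtTA*m2 transactivator, and from a littermate control that is heterozygous for Rosa26-rtTA*m2 alone. The donors were adult, and males and females were used without distinction. Non-adherent bone marrow cells of either genotype were grown until day 5 in IL-7 (20 ng/mL) and Dox (0.1 mg/mL in the labels, 0.1 µg/mL in the methods), after which an anti-Flag IP was made and part of each lysate was kept as input. Input and IP were sequenced for 2 tet-LIN28B mice and 1 control mouse, which gave 6 libraries. The control has no Flag-tagged protein, and its IP therefore holds RNA that was carried along without the tagged protein.

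Actin exists as a pool of monomers and as filaments, and the genes described here move it between these states. Profilin, encoded by Pfn1, binds monomers and feeds them to growing filament ends, whereas the beta-thymosins Tmsb4x and Tmsb10 hold monomers in reserve. Cofilin, encoded by Cfl1, severs old filaments, the Arp2/3 complex nucleates branches, and coronin 1A, encoded by Coro1a, acts on Arp2/3 and cofilin in blood cells. Actb and Actg1 encode the beta and gamma actins of non-muscle cells. In lymphocyte precursors this machinery serves migration, adhesion and division. LIN28B is a fetal RNA-binding protein that blocks the maturation of let-7 and also binds many mRNAs.

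The deposited values are FPKM, which give a level scaled to transcript length and library size but no counts. An IP/input ratio of FPKM therefore compares relative levels within libraries, not amounts of RNA recovered. Depleted and enriched are used here in that relative sense. The values of 161 to 251 single-transcript genes of about 500 nt lay on steps of 0.18 to 0.26 FPKM per fragment, so that the 10 genes at or above 49.75 FPKM each rested on many fragments in every library. FPKM sums were 1262958 and 1232800 in the tet-LIN28B IPs and 1144868 in the control IP, against 1322647 and 1364337 in the tet-LIN28B inputs and 1384941 in the control input. As in the methods of the study, genes of at least 50 FPKM in the IP and input of both tet-LIN28B mice were kept, 1460 in all. Coro1a missed this minimum at 49.75 FPKM in 1 IP. Since a minimum on the IPs removes genes that the IP lacks, values are also given for the 2093 genes of at least 50 FPKM in both tet-LIN28B inputs, which include all 10 genes. Over the 1460 genes the median log2 IP/input came to 0.02 and 0.03 for the tet-LIN28B mice, with -0.12 in the control, and over the 2093 genes to -0.52 and -0.41 for the tet-LIN28B mice and to -0.18 for the control. All 10 B cell progenitor markers exceeded 1 FPKM in every input, as did all 10 myeloid and all 4 megakaryocyte and platelet markers.

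**Figure D1:**
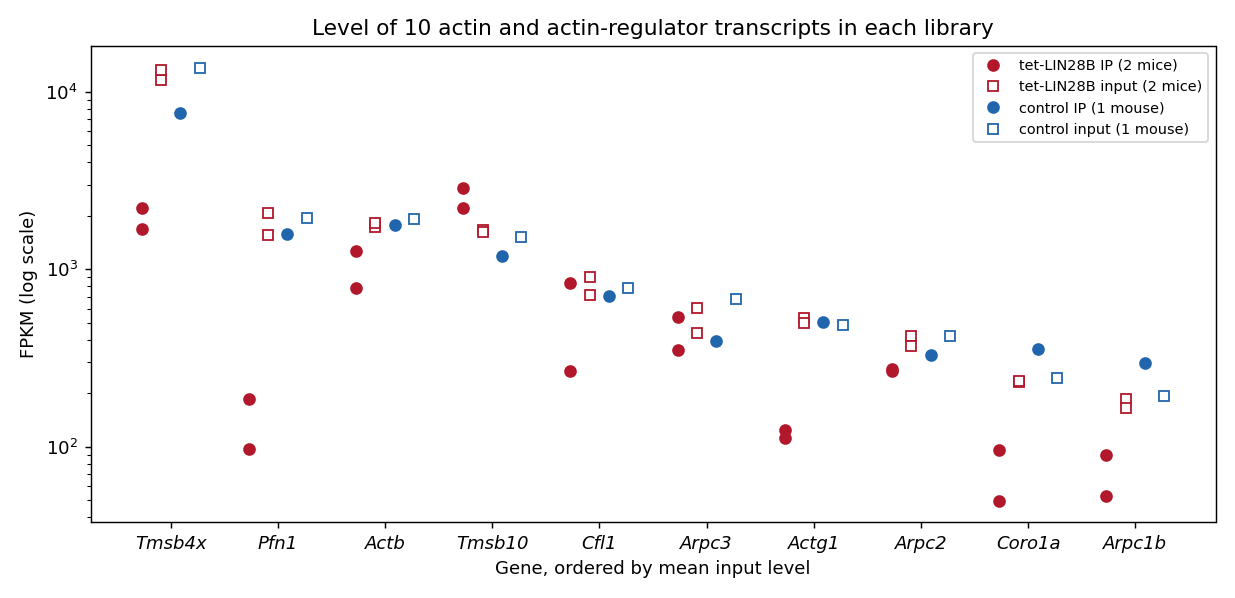
Level of each transcript in each library, in FPKM on a log axis, with filled circles for IPs, open squares for inputs, red for the 2 tet-LIN28B mice and blue for the control mouse. Pfn1 stood at 97.4 and 187 FPKM in the tet-LIN28B IPs, while its other 4 libraries lay between 1553 and 2084 FPKM.

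Pfn1 lies on chromosome 11 of GRCm38 (70651850 to 70654644, minus strand) and its principal mRNA has 861 nt. It measured 97.4 and 187 FPKM in the tet-LIN28B IPs, 1553 and 2084 FPKM in the tet-LIN28B inputs, 1572 FPKM in the control IP and 1935 FPKM in the control input. Both tet-LIN28B IPs were far below the other 4 libraries, with no overlap. The IP/input ratio was 0.0627 and 0.0896 in the tet-LIN28B mice (0.0761 ± 0.0190, SD, n = 2), with 0.812 in the control. Put the other way, the input exceeded the IP 15.9-fold and 11.2-fold in the tet-LIN28B mice. The mean log2 ratio of the tet-LIN28B mice was -3.73, a difference of -3.43 from the control mouse.

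Pfn1 ranked 22nd of 1460 genes from the lowest average ratio, and 79th of the 2093 genes kept on inputs alone. By the control mouse's own ratio it ranked 501st of the 1460. Next below it in the tet-LIN28B ranking were Gm14303 and Rpl39, a large-subunit ribosomal protein gene, at 0.0748 and 0.0758, and next above were the mitochondrially encoded mt-Nd6 and Chchd10, a gene for a protein of the mitochondrial intermembrane space, at 0.0805 and 0.0847. Among transcripts ordered by FPKM, Pfn1 held places 1165 and 749 in the tet-LIN28B IPs, 177 and 142 in the tet-LIN28B inputs, 147 in the control IP and 159 in the control input. It thus dropped down this order in the tet-LIN28B IPs and kept its place in the control IP.

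The genes closest to Pfn1 in profile were sought by the distance of log2(FPKM + 1) over the 6 libraries, each gene centred on its own mean. Hist1h2ap, a histone H2A gene, was nearest at 0.349, followed by Gm14303 at 0.399, Cox6a1 at 0.471, Cox8a at 0.488 and Chchd10 at 0.499, while the median distance of the 1459 other genes was 4.38. None of the 5 is an actin regulator. Cox6a1 and Cox8a encode subunits of cytochrome c oxidase. Their IP/input ratios were 0.0522 and 0.0743 for Cox6a1 in the tet-LIN28B mice with 0.829 in the control, and 0.0814 and 0.126 for Cox8a with 0.749 in the control. These 5 genes were selected for this likeness, and their values carry no test.

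The Pfn1 mRNA has no 50-base stretch in common with any other annotated gene, so no exact copy of that length was found that could share its reads. Copies with mismatches, or outside this annotation, were not searched for. The other profilin genes were scarce. Pfn2 measured 3.99 and 2.31 FPKM in the tet-LIN28B IPs, 1.76 and 2.34 FPKM in the tet-LIN28B inputs, 3.86 FPKM in the control IP and 2.74 FPKM in the control input, with overlapping groups, and Pfn3 and Pfn4 had a mean input below 1 FPKM. LIN28 proteins are known from let-7 precursors to contact a GGAG motif, and the sense strand of each mRNA was therefore searched for GGAG and GGAGA, with overlapping matches counted. Pfn1 holds 4 GGAG, of which 2 are in the coding sequence and 2 in the 5′ UTR, and 0 GGAGA. The coding pair overlaps, as shown in capitals within coding bases 252 to 311 (GENCODE M21, GRCm38, 5′ to 3′).
Pfn1 coding bases 252 to 311: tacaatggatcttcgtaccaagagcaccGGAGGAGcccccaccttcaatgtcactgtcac
This is 4.65 GGAG per kb, and 21.8% of the 1335 protein-coding genes with a model among the kept genes had a density as low or lower. Of those genes 91.4% held at least 1 GGAGA and 99.3% at least 1 GGAG somewhere in mRNAs of differing length. A match in letters is not a binding site.

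The remaining 9 transcripts differed widely in their IP/input ratio. At the minimum of 50 FPKM in 4 libraries, 8 of the 9 could be tested, of which 6 were depleted from the tet-LIN28B IP relative to input and 1 was enriched (adjusted p under 0.05, limma). Of all 1460 genes 35.1% were depleted and 35.8% enriched. With the minimum on inputs alone, 7 of 9 were depleted and 1 was enriched, beside 49.7% and 23.8% of the 2093 genes. The gene so added is Coro1a, which passed through its inputs, so its call is not independent of the filter. Their median log2 IP/input was -0.79 for the 8 genes, beside 0.02 over the 1460, and -0.82 for the 9 genes, beside -0.45 over the 2093.

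Compared with the control mouse, the log2 IP/input was lower in tet-LIN28B mice for 3 and higher for 1 of the 8 genes, where 22.2% of the 1460 genes were lower and 23.2% higher. On the inputs-only minimum, which adds Coro1a to the lower genes, it was lower for 4 and higher for 1 of 9. Of the 2093 genes 32.5% were lower and 13.8% higher. Medians of this difference were -0.66 for the 8 genes (0.07 over all kept genes) and -0.70 for the 9 (-0.36 over all). With 2 tet-LIN28B mice and 1 control there was 1 residual degree of freedom per gene, and limma took the spread from all genes together, so a small p does not mean that both mice agreed on that gene, and the spread of the lone control is taken to be theirs. An exact permutation test of 2 mice against 1 cannot go below p = 0.333.

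**Figure D2:**
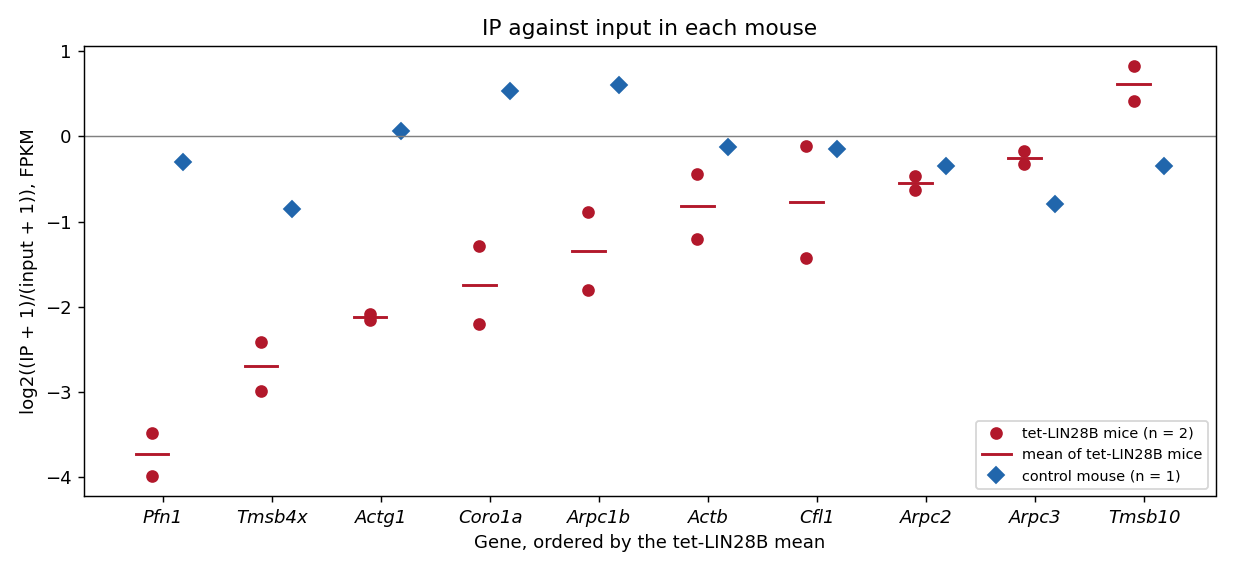
IP against input within each mouse as log2((IP + 1)/(input + 1)) of FPKM, with red circles for the 2 tet-LIN28B mice, a red bar for their mean and a blue diamond for the control mouse. Means ran from -3.73 for Pfn1 to 0.62 for Tmsb10, and in Arpc3 and Tmsb10 both tet-LIN28B mice lay above the control.

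Cfl1, on chromosome 19 (5490455 to 5495201, plus strand), measured 266 and 838 FPKM in the tet-LIN28B IPs, 714 and 907 FPKM in the tet-LIN28B inputs, 704 FPKM in the control IP and 782 FPKM in the control input. Only the first mouse's IP stood apart, and that of the second lay among the inputs. The ratios of 0.372 and 0.924 (0.648 ± 0.390, SD, n = 2) were accordingly the most discordant of the 10, and the control's was 0.900. Cfl1 was depleted by the pooled spread (log2 -0.77, SE 0.20, adjusted p = 0.00017, limma), but the difference from the control was not called (-0.62, SE 0.34, adjusted p = 0.126, limma). Without the mouse as a block the first of these was not called either (adjusted p = 0.245, limma). In the mean of the tet-LIN28B mice, the ratios of the other cofilin family genes lay nearer to 1. In the second mouse this did not hold for Dstn, and in the control not for Cfl2. Cfl2 had ratios of 0.733 and 1.02 in tet-LIN28B mice, with 1.15 in the control at a mean input of 15.4 FPKM, and Dstn, which encodes destrin, had 1.38 and 1.15 with 0.900 in the control (log2 0.32, SE 0.17, adjusted p = 0.0764, limma).

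Actb and Actg1 encode actins that differ in a few residues near the N terminus. Their coding sequences agreed at 1000 of 1128 bases (88.7%) with 30 shared stretches of 50 bases, and differ at 9 of the first 60 bases, shown in capitals because these are among the places where reads tell the genes apart.
Actb coding bases 1 to 60: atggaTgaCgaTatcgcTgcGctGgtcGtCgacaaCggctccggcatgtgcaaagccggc
Actg1 coding bases 1 to 60: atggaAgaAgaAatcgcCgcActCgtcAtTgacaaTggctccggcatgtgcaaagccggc
Both are GENCODE M21 models on GRCm38, 5′ to 3′. Actb lies on chromosome 5 (142903115 to 142906754, minus strand) and Actg1 on chromosome 11 (120345690 to 120348542, minus strand).

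The gamma actin transcript was depleted more evenly than the beta actin transcript. Actg1 measured 124 and 111 FPKM in the tet-LIN28B IPs, 531 and 499 FPKM in the tet-LIN28B inputs, 506 FPKM in the control IP and 483 FPKM in the control input. Both tet-LIN28B IPs lay below every other library. Ratios were 0.234 and 0.223 (0.228 ± 0.0077, SD, n = 2) with 1.05 for the control mouse, which gave a log2 of -2.12 against input (SE 0.18, adjusted p = 8.96e-29, limma) and of -2.19 against the control (SE 0.32, adjusted p = 1.78e-10, limma). Actb measured 1266.5 and 788 FPKM in the tet-LIN28B IPs, 1718 and 1813 FPKM in the tet-LIN28B inputs, 1765 FPKM in the control IP and 1921 FPKM in the control input. Here too the tet-LIN28B IPs were the 2 lowest libraries, but closer to the rest. Actb was depleted against input (log2 -0.82, SE 0.21, adjusted p = 0.000188, limma) with ratios of 0.737 and 0.435 (0.586 ± 0.214, SD, n = 2) and 0.919 in the control, and its difference from the control was not called (-0.70, SE 0.36, adjusted p = 0.105, limma).

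Within a library Actb exceeded Actg1 by 10.2-fold and 7.07-fold in the tet-LIN28B IPs, by 3.23-fold and 3.63-fold in the tet-LIN28B inputs, by 3.49-fold in the control IP and by 3.98-fold in the control input. The tet-LIN28B IPs thus held the most unequal mixture. Of the 50-mers of Actg1, 37.4% also occur in other genes, 12 of the 23 partners being pseudogenes, and for Actb 9.1% do, so part of the reads could be shared out between the copies by the authors' quantification. With genes sharing a 50-mer summed, the log2 of Actg1 shrank to -0.98 against input (adjusted p = 8.89e-06, limma) and -0.93 against the control (adjusted p = 0.0286, limma), in a sum of which the partners made up 78.37% in the inputs. Actb is among these partners, at a mean input of 1817 FPKM beside 505 FPKM for Actg1. Its own sum gave the same log2 of -0.98 against input, so the summed value mixes both actins. The muscle actins Acta1, Acta2, Actc1 and Actg2 had a mean input below 1 FPKM.

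**Figure D3:**
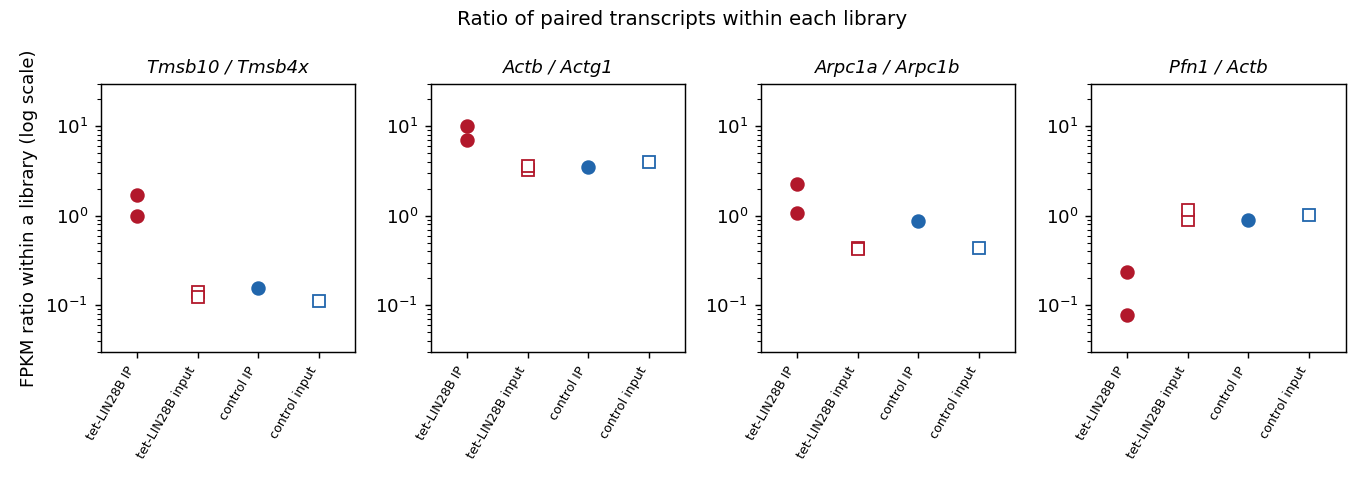
Ratio of the FPKM of the named transcript pairs within each library, on a common log axis, with filled circles for IPs, open squares for inputs, red for tet-LIN28B and blue for control. The tet-LIN28B IPs lay above all 4 other libraries for Tmsb10/Tmsb4x (1.005 and 1.71), Actb/Actg1 (10.2 and 7.07) and Arpc1a/Arpc1b (2.25 and 1.075) and below them for Pfn1/Actb (0.0769 and 0.237).

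The beta-thymosins moved in opposite directions. Tmsb4x, on chromosome X (167207093 to 167209315, minus strand), is among the most abundant transcripts of these cells, and measured 2201 and 1684 FPKM in the tet-LIN28B IPs, 11677 and 13302 FPKM in the tet-LIN28B inputs, 7598 FPKM in the control IP and 13671 FPKM in the control input. Both tet-LIN28B IPs were lowest, and the control IP also lay below every input. The ratios of 0.188 and 0.127 (0.158 ± 0.0438, SD, n = 2) and of 0.556 in the control gave a log2 of -2.69 against input (SE 0.24, adjusted p = 1.44e-27, limma) and of -1.85 against the control (SE 0.41, adjusted p = 5.04e-05, limma). Tmsb4x ranked 54th from the lowest of 1460 genes in the tet-LIN28B mice and 61st in the control, so it stood low in both IPs. By FPKM it held places 106 and 133 in the tet-LIN28B IPs, place 8 in both tet-LIN28B inputs, place 12 in the control IP and place 7 in the control input.

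Tmsb10, on chromosome 6 (72957347 to 72958748, minus strand), measured 2211 and 2873 FPKM in the tet-LIN28B IPs, 1662 and 1626 FPKM in the tet-LIN28B inputs, 1188.5 FPKM in the control IP and 1510.5 FPKM in the control input. It was the only one of the 10 with both tet-LIN28B IPs above every other library. Its ratios were 1.33 and 1.77 (1.55 ± 0.309, SD, n = 2) in tet-LIN28B mice, with 0.787 in the control. Tmsb10 was enriched against input (log2 0.62, SE 0.21, adjusted p = 0.00618, limma) and its ratio was above that of the control (0.96, SE 0.37, adjusted p = 0.0238, limma). This second call is narrow, since the adjusted p was 0.0514 with values scaled to TPM and 0.0645 with each library centred on its median (limma).

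Tmsb10 stood at 1.005 and 1.71 times Tmsb4x in the tet-LIN28B IPs, but at 0.142 and 0.122 times in the tet-LIN28B inputs, 0.156 times in the control IP and 0.111 times in the control input. The most abundant thymosin transcript was therefore Tmsb4x in 4 libraries and Tmsb10 in both tet-LIN28B IPs. The coding sequences have 135 bases each, are identical at 98 of 137 aligned positions (71.5%, with 4 gaps) and share no 50-mer. They are printed whole because they show how 2 close paralogs with opposite values differ in letters, with each GGAG in capitals (GENCODE M21, GRCm38, 5′ to 3′).
Tmsb4x: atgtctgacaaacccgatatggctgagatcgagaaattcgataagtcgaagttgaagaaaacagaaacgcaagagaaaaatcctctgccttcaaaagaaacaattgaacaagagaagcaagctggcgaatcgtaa
Tmsb10: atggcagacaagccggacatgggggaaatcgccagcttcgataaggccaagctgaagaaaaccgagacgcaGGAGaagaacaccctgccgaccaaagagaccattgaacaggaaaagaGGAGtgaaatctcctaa
The Tmsb4x coding sequence holds 0 GGAG and that of Tmsb10 holds 2, while the whole mRNAs hold 4 in 768 nt (5.21 per kb) and 5 in 690 nt (7.25 per kb). Of the 50-mers of Tmsb10, 27.0% also occur in 5 other genes, 4 of them pseudogenes. These 5 held 2.2% of the FPKM of this family in the inputs, with each FPKM weighted by mRNA length. The other thymosin genes were low. Tmsb15l had ratios of 0.213 and 0.133 in tet-LIN28B mice, with 0.421 in the control at a mean input of 40.3 FPKM, Tmsb15b1 had 0.367 and 0.299 with 0.398 in the control at 36.2 FPKM, and Tmsb15b2 had 2.00 and 0.742 with 2.26 in the control at 14.4 FPKM. These 3 genes overlap on chromosome X and share most of their sequence, so their separate values are uncertain.

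Coro1a lies on chromosome 7 (126699773 to 126707787, minus strand). It measured 49.75 and 95.7 FPKM in the tet-LIN28B IPs, 232 and 235 FPKM in the tet-LIN28B inputs, 355 FPKM in the control IP and 244 FPKM in the control input. The tet-LIN28B IPs were the lowest and the control IP the highest of the 6 libraries. Ratios were 0.215 and 0.407 (0.311 ± 0.136, SD, n = 2) in tet-LIN28B mice, with 1.45 in the control. On the inputs-only minimum the log2 was -1.74 against input (SE 0.19, adjusted p = 5.30e-19, limma) and -2.28 against the control (SE 0.33, adjusted p = 8.81e-11, limma). Coro1a passed this minimum through the inputs, where it was high, and 49.7% of the 2093 genes so kept were lower than input. These p-values are thus not independent of the filter. At 10 FPKM in the 4 tet-LIN28B libraries it was also called lower than input (adjusted p = 2.20e-10, limma). The other coronins had lower inputs and were not tested. Coro1b had ratios of 0.559 and 1.08 in tet-LIN28B mice, with 1.02 in the control, Coro1c had 1.67 and 1.94 with 1.76 in the control, Coro2a had 1.19 and 1.43 with 1.91 in the control, and Coro7 had 0.523 and 0.527 with 1.29 in the control. Only for Coro2a and Coro7, besides Coro1a, did both tet-LIN28B ratios lie below that of the control.

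The Arp2/3 complex joins 7 subunits, of which Arpc1b, Arpc2 and Arpc3 are among the 10 genes. Arpc1b, encoding the blood cell form of the ARPC1 subunit, lies on chromosome 5 (145114215 to 145130705, plus strand) and measured 52.6 and 89.4 FPKM in the tet-LIN28B IPs, 186 and 165 FPKM in the tet-LIN28B inputs, 295 FPKM in the control IP and 194 FPKM in the control input. As for Coro1a, the tet-LIN28B IPs were lowest and the control IP highest. The ratios of 0.283 and 0.540 (0.411 ± 0.182, SD, n = 2) and of 1.52 in the control gave a log2 of -1.34 against input (SE 0.17, adjusted p = 6.01e-14, limma) and of -1.95 against the control (SE 0.30, adjusted p = 1.66e-09, limma). Arpc1b shares 7.4% of its 50-mers with 141 other genes, and with these summed into 1 value the direction turned, to 0.53 against input (adjusted p = 0.0273, limma) and 0.10 against the control (adjusted p = 0.862, limma), a sum in which the partners made up 95.44% of the input.

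Arpc2, a core subunit gene on chromosome 1 (74236084 to 74268209, plus strand), measured 273 and 268 FPKM in the tet-LIN28B IPs, 423 and 371 FPKM in the tet-LIN28B inputs, 330.0 FPKM in the control IP and 420.4 FPKM in the control input. IPs of both genotypes lay below the inputs. The ratios were 0.646 and 0.723 (0.684 ± 0.0539, SD, n = 2) against 0.785 in the control, with a log2 of -0.55 against input (SE 0.18, adjusted p = 0.00488, limma) and of -0.20 against the control, which was not called (SE 0.32, adjusted p = 0.652, limma). Arpc3, likewise on chromosome 5 (122391878 to 122414184, plus strand), measured 349.8 and 540.0 FPKM in the tet-LIN28B IPs, 439 and 609 FPKM in the tet-LIN28B inputs, 393 FPKM in the control IP and 680.2 FPKM in the control input. IPs and inputs overlapped. Its ratios of 0.797 and 0.887 (0.842 ± 0.0636, SD, n = 2) were above the 0.578 of the control, and neither the log2 of -0.25 against input (SE 0.19, adjusted p = 0.232, limma) nor that of 0.54 against the control (SE 0.33, adjusted p = 0.176, limma) was called.

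The rest of the complex did not move as one. Arpc1a, which encodes the widely expressed form of the ARPC1 subunit, had ratios of 1.45 and 1.38 in tet-LIN28B mice, with 3.09 in the control, and was thus enriched against input (log2 0.49, SE 0.17, adjusted p = 0.00617, limma) yet lower than in the control (-1.13, SE 0.29, adjusted p = 0.000641, limma). Arpc4 was lower in both respects, with ratios of 0.344 and 0.360 against 1.22 in the control (-1.50 against input, SE 0.18, adjusted p = 2.72e-16, and -1.78 against the control, SE 0.30, adjusted p = 8.32e-08, limma). Actr2 and Actr3, which encode the actin-related ARP2 and ARP3, were enriched against input (log2 0.66, adjusted p = 0.00022, and 0.78, adjusted p = 2.01e-05, limma), and neither difference from the control was called (0.32, adjusted p = 0.406, and 0.66, adjusted p = 0.0599, limma). Arpc5 had ratios of 1.06 and 1.07 with 1.22 in the control and was not called, and Arpc5l had 0.823 and 0.636 with 0.858 in the control and was lower than input (log2 -0.47, SE 0.19, adjusted p = 0.0195, limma). Of the 9 Arp2/3 genes passing the minimum, members and others together, subunits of 1 complex thus had mean log2 ratios from -1.50 for Arpc4 to 0.78 for Actr3. The 2 forms of ARPC1 also changed places. Arpc1a stood at 2.25 and 1.075 times Arpc1b in the tet-LIN28B IPs, 0.439 and 0.422 times in the tet-LIN28B inputs, 0.883 times in the control IP and 0.435 times in the control input.

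A further list of 105 actin pathway genes was drawn up from textbook knowledge, of which 87 averaged 1 FPKM or more in the inputs. At the minimum of 50 FPKM in 4 libraries 23 could be tested, with 8 enriched and 6 depleted against input (35.8% and 35.1% of the 1460 genes) and a median log2 of 0.09 beside 0.02 over the 1460 genes. Against the control 4 were higher and 7 lower (23.2% and 22.2% of the 1460 genes), with a median of -0.03 beside 0.07. On the inputs-only minimum 32 passed, with 7 higher and 14 lower against input (23.8% and 49.7% of the 2093 genes) and 3 higher and 14 lower against the control (13.8% and 32.5%), and medians of -0.26 (-0.45 over all) and -0.62 (-0.36 over all). The genes that this minimum adds passed through their inputs, so the lower counts are not independent of the filter.

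Among the 23 genes passing the minimum in 4 libraries, the highest mean log2 IP/input belonged to Vav1, Gmfb, Cnn3 and Actr3. These genes, and the lowest ones described next, were named for this tet-LIN28B ratio. It also enters the difference from the control, so the p-values of that difference are not independent of the choice. Vav1, which encodes a signalling protein downstream of antigen receptors, measured 491 and 350.5 FPKM in the tet-LIN28B IPs, 74.8 and 70.5 FPKM in the tet-LIN28B inputs, 74.96 FPKM in the control IP and 64.7 FPKM in the control input. Only the tet-LIN28B IPs were raised, with ratios of 6.57 and 4.97 (5.77 ± 1.13, SD, n = 2) and 1.16 in the control (log2 2.29 above the control, SE 0.30, adjusted p = 7.93e-13, limma). Gmfb, whose product removes branches made by Arp2/3, had ratios of 3.18 and 3.596 with 1.24 in the control (1.44 above the control, SE 0.29, adjusted p = 9.76e-06, limma), and Cnn3, a calponin gene, had 2.52 and 2.22 with 0.774 in the control (1.596 above the control, SE 0.29, adjusted p = 7.29e-07, limma). Actr3 is described with its complex.

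The lowest among the 23, named in the same way, were Arhgdib, Arpc4, Brk1 and Capzb. Arhgdib measured 138 and 185 FPKM in the tet-LIN28B IPs, 753 and 862 FPKM in the tet-LIN28B inputs, 552 FPKM in the control IP and 859 FPKM in the control input. Its ratios of 0.183 and 0.215 (0.199 ± 0.0226, SD, n = 2) were below the 0.642 of the control by a log2 of -1.69 (SE 0.33, adjusted p = 2.58e-06, limma). Brk1, a subunit gene of the WAVE complex, had ratios of 0.350 and 0.443 with 0.924 in the control (-1.23, SE 0.32, adjusted p = 0.00059, limma), and Capzb, for a subunit of capping protein, had 0.389 and 0.460 with 0.881 in the control (-1.05, SE 0.30, adjusted p = 0.00183, limma).

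Rac2 and Tagln2 were also depleted but stood below the minimum in the IPs. They were singled out after their values had been seen, so no p-value is given for them here. On the inputs-only minimum, which they passed through their inputs, both are counted among the 14 lower genes, against input and against the control. Rac2, a GTPase gene of blood cells, measured 8.19 and 21.1 FPKM in the tet-LIN28B IPs, 173 and 212 FPKM in the tet-LIN28B inputs, 225 FPKM in the control IP and 240.0 FPKM in the control input, with a mean log2 of -3.75 against input, beside -3.73 for Pfn1, and of -3.66 against the control. Tagln2, for the actin-bundling transgelin 2, measured 7.93 and 14.6 FPKM in the tet-LIN28B IPs, 80.7 and 89.4 FPKM in the tet-LIN28B inputs, 70.8 FPKM in the control IP and 91.5 FPKM in the control input, with -2.87 against input and -2.50 against the control. In both genes the control IP lay near the inputs.

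**Figure D4:**
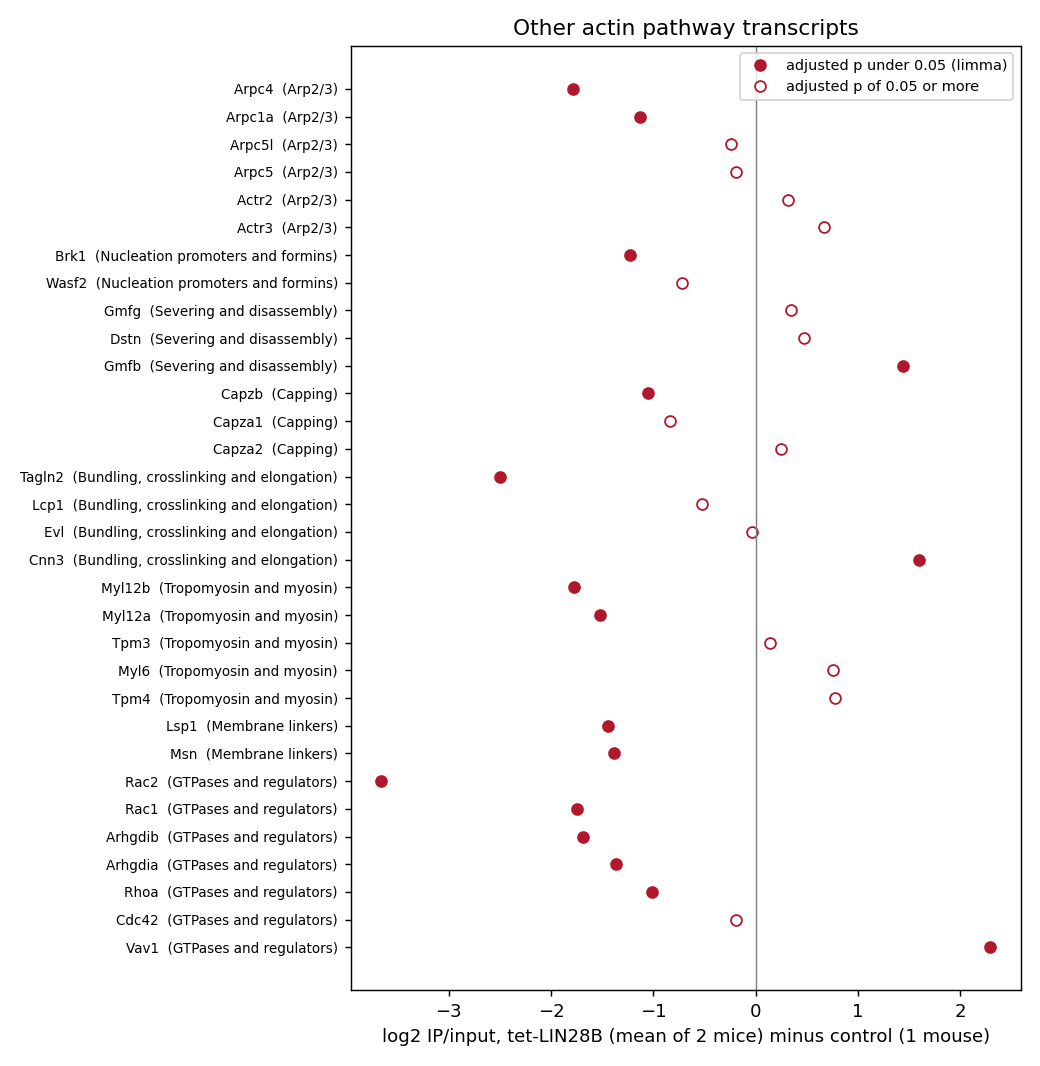
Difference in log2 IP/input between tet-LIN28B mice (mean of 2) and the control mouse for the 32 genes of the wider actin list with at least 50 FPKM in both tet-LIN28B inputs, grouped by role, filled where the adjusted p was under 0.05 (limma). Filled points lay on both sides of 0, at 3 genes above and 14 below (13.8% and 32.5% of all 2093 genes), from -3.66 for Rac2 to 2.29 for Vav1. Among those below, Tagln2, Myl12a, Myl12b, Lsp1, Rac1, Rac2 and Arhgdia missed the minimum in the IPs and passed through their inputs. Their filled points are thus not independent of the filter.

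The plot of the 10 transcripts among the 2093 genes shows how each stood in both genotypes. Pfn1, Tmsb4x, Actg1, Coro1a and Arpc1b lay well to the left of the line of equal values, and Tmsb10 to its right. Coro1a and Arpc1b ranked 1931st and 1964th of 2093 from the lowest in the control and 456th and 616th in tet-LIN28B mice. Arpc3 was the reverse, at 169th in the control and 1192nd in tet-LIN28B mice.

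**Figure D5:**
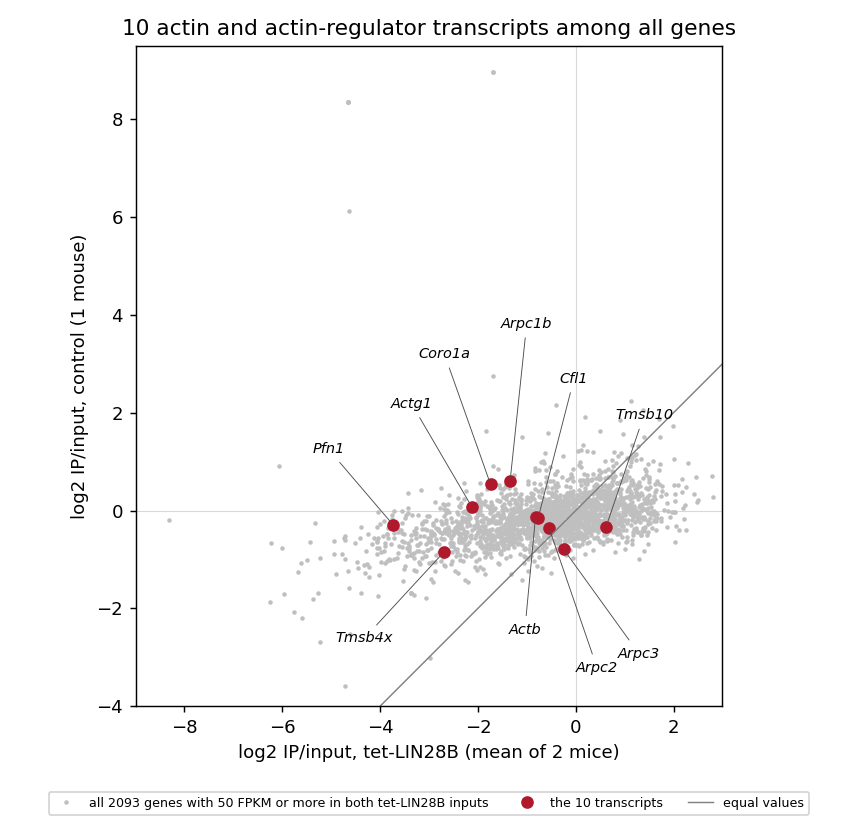
Mean log2 IP/input of the 2 tet-LIN28B mice (horizontal axis) against that of the control mouse (vertical axis) for 2093 genes in grey and the 10 transcripts in red, with a line of equal values. On the horizontal axis the 10 red points spread from -3.73, at Pfn1, which was picked for this depletion, to 0.62. On the vertical axis they spread from -0.85 to 0.60.

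Before the IP the 10 transcripts did not differ detectably between genotypes. In the inputs, the log2 difference of tet-LIN28B from control ran from -0.40 for Arpc3 (SE 0.27, adjusted p = 0.839, limma) to 0.12 for Tmsb10 (SE 0.15, adjusted p = 0.875, limma), and that of Pfn1 was -0.11 (SE 0.26, adjusted p = 0.935, limma). Their median was -0.10, beside -0.04 over all 12576 genes averaging 1 FPKM or more in the inputs. By limma 0 of the 10 and 0% of the 12576 were called higher and 0% lower, and at an unadjusted p under 0.05 there were 0 of the 10, 3 of the 87 wider-list genes and 279 higher and 401 lower of all genes. With 1 control mouse a moderate difference could be missed, and in bulk cultures fewer cells of a type and less RNA per cell cannot be told apart.

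Taken as a share of all FPKM, the 10 transcripts made up 0.546% and 0.606% of the tet-LIN28B IPs, 1.45% and 1.58% of the tet-LIN28B inputs, 1.285% of the control IP and 1.58% of the control input. Tmsb4x alone held 0.174% and 0.137% of the tet-LIN28B IPs, 0.883% and 0.975% of the tet-LIN28B inputs, 0.664% of the control IP and 0.987% of the control input. Without it the other 9 held 0.371% and 0.470% of the tet-LIN28B IPs, 0.564% and 0.609% of the tet-LIN28B inputs, 0.621% of the control IP and 0.590% of the control input. The tet-LIN28B IPs thus stayed the lowest with Tmsb4x left out, and the control IP then stood above its input. Both sums include Pfn1, which was picked for its depletion from these IPs. These shares are therefore a description only, and no share without Pfn1 is given.

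Some properties of the transcripts were set beside these values. Across the 1335 protein-coding genes, the log2 IP/input correlated with mRNA length at a Spearman rho of 0.279 and 0.303 in the tet-LIN28B mice, with 0.453 in the control. Genes are not independent replicates and share their libraries, so these are descriptions. Pfn1, Tmsb4x, Tmsb10 and Arpc3, at 861, 768, 690 and 899 nt, lie below the lower quartile of 1002 nt (median 1612 nt). Tmsb10 is the shortest of the 10 and had the highest tet-LIN28B ratio. For GGAG per kb rho was 0.055 and 0.091 in the tet-LIN28B mice, with 0.129 in the control, and for GC content -0.165 and -0.101 in the tet-LIN28B mice, with 0.111 in the control. The densest in GGAG was Coro1a with 12.02 per kb and the sparsest Pfn1 with 4.65 per kb (median of the 1335 genes 6.83). Whether length, GGAG or GC content bears on the ratios of the 10 was not tested. Apart from Pfn1, which held none, the 10 carried 1 to 6 GGAGA each.

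The marker lists were summed in each library as well. Levels of the 10 myeloid markers were 2537 and 1677 FPKM in the tet-LIN28B IPs, 7447 and 4661 FPKM in the tet-LIN28B inputs, 2782 FPKM in the control IP and 6408 FPKM in the control input, or ratios of 0.341 and 0.360 in tet-LIN28B mice, with 0.434 in the control. The IPs of both genotypes were thus poorer in these markers. The 4 megakaryocyte and platelet markers, of cells rich in Tmsb4x, had ratios of 0.386 and 0.396 in tet-LIN28B mice, with 1.07 in the control, and the 10 B cell progenitor markers 1.36 and 1.16 with 0.869 in the control. Of the T and NK cell markers 3 of 6, of the erythroid markers 1 of 4 and of the stromal markers 0 of 6 reached 1 FPKM in every input. The part of these other cells in the values of the actin transcripts was not tested.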

How the data were processed

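RIP-seq libraries of input and anti-Flag IP from 2 tet-LIN28B mice and 1 control were analysed. Per the authors' methods, STAR 2.7.1 (build mm10) and RSEM 1.28 produced the deposited FPKM. Which annotation release they used is not given in the sources. Reads came from SMART-Seq v4 and Nextera XT libraries, a method that does not mark strand, so overlapping genes cannot be separated by strand. FPKM hold no counts, and no counting interval is given. Fraction, genotype and mouse were taken from sample titles and column names. The descriptions end on the other fraction's name, which was not followed. The study's wording for the tet-LIN28B replicates varies between technical and biological, and they were taken as 2 mice. If they were technical, p-values measure only that spread. No values were identical in any of the 15 pairs of libraries.

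Log2((IP + 1)/(input + 1)) per mouse was fitted with limma 3.58.1 (R 4.3.3), genotype as factor, with a trend on mean expression, over all genes of at least 50 FPKM in the 4 tet-LIN28B libraries, with Benjamini-Hochberg adjustment over those genes and a threshold of 0.05. Log fold changes are on this pseudocount scale. Inputs were compared on log2(FPKM + 1) for genes of mean input of at least 1 FPKM. Input and IP of a number come from the same mouse, and the tet-LIN28B mice differed from each other alike in both fractions (r = 0.479 across genes). Gene positions, mRNAs and 50-mers are from GENCODE M21 (GRCm38), which matched 54092 genes. Sums over genes sharing a 50-mer weighted each FPKM by mRNA length. The fit was tested on simulated data. Python 3.11.15 was used for the rest.

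The 10 genes, the wider actin list and the marker lists were chosen with earlier results of these data known. Named from the wider list were the 4 highest and 4 lowest mean log2 ratios among kept genes, the other Arp2/3 subunits and the paralogs of the 10 genes, and besides these the 5 genes nearest to Pfn1 and the 2 on either side of it in rank. Rac2, Tagln2, Tpm4, Msn and Rhoa are not covered by this rule and were picked with their values in view. Alternatives changed the minimum, the pseudocount, the scaling, the replicate block, the trend, the treatment of genes sharing a 50-mer and left out each tet-LIN28B mouse. Protein sequences, western blots and flow cytometry were not used here.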

Additional observations from a re-analysis of the deposited data

Results flagged for a closer look

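The IP/input ratio differed between tet-LIN28B and control mice, by a test of the difference itself (limma), for 4 of the 8 transcripts other than Pfn1 that passed the minimum in 4 libraries (23.2% of the 1460 genes were higher and 22.2% lower), and for Coro1a, which passed on inputs only (32.5% of the 2093 genes were lower). The log2 difference was -2.19 for Actg1, -1.85 for Tmsb4x, 0.96 for Tmsb10, -2.28 for Coro1a and -1.95 for Arpc1b. Both tet-LIN28B mice lay on the stated side of the control for each of these 5. They also lay on 1 side of it for Actb, Arpc2 and Arpc3, which were not called, so this does not set the 5 apart. Of the 23 tested genes of the wider actin list the same test gave 4 higher (Gmfb, Cnn3, Tpm4 and Vav1) and 7 lower (Arpc1a, Arpc4, Brk1, Capzb, Msn, Rhoa and Arhgdib), beside the same 23.2% and 22.2%.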

How the results depend on the processing

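Of the values of single transcripts recomputed under the alternatives with a test, 212 kept their direction and their side of the threshold, 8 lost it, 2 gained it and 2 turned round. The turned values were those of Arpc1b with genes sharing a 50-mer summed, 0.53 against input and 0.10 against the control. The number of the 9 transcripts higher in the IP than in the input was 0 with no minimum and 2 with the 50-mer sum, and the number higher than in the control was 0 with no minimum, with TPM scaling, with median centring and with no replicate block. Tmsb10 is the gene concerned, with adjusted p of 0.136, 0.0514, 0.0645 and 0.116 (limma). TPM scaling and median centring moved the median difference of all 1460 genes to -0.09 and -0.07 and the calls to 239 and 246 higher and 366 and 367 lower. Without the replicate block, that is without pairing IP and input of a mouse, 3 wider-list genes were lower than in the control, and 130 genes were higher and 125 lower over all. The wider-list count lower than input was 14 on inputs only, 18 at 10 FPKM and 25 with no minimum, that higher than input was 14 at 10 FPKM, 16 with no minimum and 5 with the 50-mer sum, and that lower than in the control was 14 on inputs only, 19 at 10 FPKM and 15 with no minimum. Tmsb4x against the control reached an adjusted p of 0.0502 with no minimum, Cfl1 against input 0.0689, and Actb against the control 0.0325 with TPM scaling and 0.0288 with the 50-mer sum (limma).

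Leaving out 1 tet-LIN28B mouse leaves no residual degree of freedom, so only values are given. Of 56 such values of single transcripts 4 changed sign, all of differences that were not called, namely Cfl1 against the control (0.04 without mouse 1) and the input differences of Pfn1 (0.11 without mouse 1), Cfl1 (-0.13 without mouse 2) and Arpc2 (0.01 without mouse 2). Cfl1 against input was -0.11 without mouse 1 and -1.42 without mouse 2. The median of the 9 transcripts ranged from -1.42 without mouse 2 to -0.88 without mouse 1 against input, and from -1.27 to -1.08 against the control. With both mice it was -0.82 and -0.70, outside these ranges, so these medians depend on which mice are used. That of the 10 inputs ranged from -0.104 to -0.0479. Wider-list medians ranged from 0.13 to 0.18 against input (0.09 with both mice) and from -0.06 to 0.01 against the control (-0.03 with both mice).

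The control is 1 mouse, and 1 fragment was worth up to 0.26 FPKM at 500 nt, which limits the scarce paralogs such as Pfn2.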
